A study of Mus musculus with 12 samples.

Results

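The culture that overexpressed Gatad2b was compared with the cultures that overexpressed Etv6 and Nfxl1, using 3 of the 12 arrays of the series. The arrays were chosen by their labels and by the slide barcode in the file headers, which puts all 3 on the slide numbered 2 here, at positions 1, 2 and 4. The EGFP and mock arrays, at positions 2 and 1 of another slide, served as a check. All cells were labelled as neural progenitor cells of the mouse strain 129/Ola. In the Gatad2b, Etv6, Nfxl1 and EGFP cultures, a retrovirus (pMXs-IRESNeo) delivered the open reading frame at a titre that gave about 95% expressing cells, G418 was added at 24 h to remove the others, and RNA was taken at 72 h. The sources used here do not give what the mock culture received. Each label has 1 array and 1 culture, so no value below has a replicate error, no test was possible, and a factor's effect, a culture's history and an array's own noise cannot be told apart.

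Gatad2b, also called p66-beta, is a zinc finger subunit of the NuRD complex, which joins nucleosome remodelling by Chd proteins to histone deacetylation by Hdac proteins and is mostly known for silencing genes. In neural progenitors, NuRD takes part in the switch from proliferation to neuronal differentiation. Etv6 is an ETS family repressor that binds DNA, and Nfxl1 is a member of the NFX1 family of zinc finger proteins, so both references are themselves overexpressed factors and not empty controls.

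A level is given as the log2 intensity of a gene's probe minus the 75th percentile of its own array, so that 0 is a fairly bright probe and about -6.5 is the floor, the lowest signal that the image software called well above background. The floors were -6.60 on Gatad2b, -6.46 on Etv6, -6.45 on Nfxl1, -6.78 on EGFP and -6.56 on mock. A gene was called when its level on Gatad2b was at least 1 log2 (2-fold) above both references, or below both, with the brighter side well above background. Of 19571 genes tested, each with a signal well above background on 1 or more of the 5 arrays, 16485 had one on every array. The spread within an array was taken from 245 probes spotted 10 times on it. On the Gatad2b array the median SD over those spots was 0.06 for probes above a level of -1, 0.08 between -3 and -1, and 0.27 below -3, where the 95th percentile was 0.71.

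Markers of neural progenitors were present on the 3 arrays, as were markers of other cell types. Nes, the intermediate filament of neural progenitors, lay at 3.61 on Gatad2b, 3.52 on Etv6 and 3.58 on Nfxl1, and Vim at 6.41, 6.56 and 6.77. Sox2 lay at 0.28, 0.79 and 0.24. Of the 14 neural progenitor genes measured, 12 were well above background on all 5 arrays, none was called, and Olig2 was well above background on none of the 3. Among markers of other cells, 5 of the 10 neuronal genes measured were well above background on all 5 arrays. So were 8 of 10 astrocyte genes, 7 of 9 oligodendrocyte lineage genes, 10 of 11 fibroblast genes and 8 of 9 epithelial genes. Of the neuronal genes, Dcx, Stmn2 and Elavl3 lay at the floor on Gatad2b, while Rbfox3 was called higher there. The summed linear level of the 10 neuronal genes measured ran from 1.14 on Gatad2b to 1.33 on Etv6. That of the 11 fibroblast genes ran from 117 on mock to 129 on Gatad2b, and that of the 14 progenitor genes from 101 on mock to 127 on Nfxl1. The sum over 9 epithelial genes differed more, at 7.91 on Gatad2b, 16.1 on Etv6, 9.86 on Nfxl1, 7.45 on EGFP and 7.78 on mock, with Etv6 the high array, and its part in the calls was not tested.

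The overexpressed genes did not stand out on their own arrays. The brightest Gatad2b probe, on chromosome 3 at 90491865 to 90491924 in mm7, lay at 0.84 on Gatad2b, 0.73 on Etv6, 0.91 on Nfxl1, 0.89 on EGFP and 0.86 on mock. Its other 2 probes spanned -2.48 to -2.04 over the 5 arrays. The brightest Etv6 probe lay at -0.34 on its own array against -0.14 on Gatad2b, and that of Nfxl1 at 0.86 against 0.72. A viral insert holds the open reading frame alone, and whether any probe lies inside it was not established, so these values neither check the labels nor measure the inserts.

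No NuRD gene reached the limit either. Of 16 NuRD genes, Gatad2b included, all were well above background on all 5 arrays and none was called. Their differences from the mean of both references ran from -0.12 to 0.34, with a median of 0.07 beside 0.03 over all genes tested. On Gatad2b, 7 of the 16 lay above all 4 other arrays, as 24% of all genes did, and none lay below both references. The 24% includes genes at the floor on Gatad2b, which cannot lie above all 4. The largest was that of Rbbp4, a histone-binding subunit, at 4.65 on Gatad2b, 4.32 on Etv6, 4.29 on Nfxl1, 4.31 on EGFP and 4.35 on mock. Gatad2b was the highest of the 5 there by about 0.3, but 2 of the 3 other Rbbp4 probes were lower on Gatad2b than on the reference mean, by -0.17 and -0.07. Mta3 followed at 0.27 and Kdm1a, the histone demethylase found with NuRD, at 0.19. The deacetylase Hdac1 stood at 0.18 and Hdac2 at -0.12, and the paralogue Gatad2a at 0.04.

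Against both references, 150 genes were higher on Gatad2b (0.766% of those tested) and 31 were lower (0.158%). Of these, 118 were also at least 2-fold above EGFP and mock (0.603%), and 19 also at least 2-fold below them (0.0971%). For 74 of the 150 higher genes, only Gatad2b of the 5 arrays was well above background. The check on those genes set Gatad2b against dim controls, so it adds little. Most of the higher genes were dim. Their median level on Gatad2b was -4.51, 116 of the 150 were not well above background on all 5 arrays, and 107 were well above it on neither reference. Restricted to genes that all 5 arrays measured above background, 34 were higher (0.174% of the 19571) and 24 were lower (0.123%), and 14 (0.0715%) and 13 (0.0664%) held against all 4 other arrays. The limit of 1 log2 cut through a continuum, with a further 265 genes between 0.5 and 1 log2 above both references and 163 as far below both. A normexp background correction with an offset of 50, which shrinks differences between dim spots, left 11 higher and 4 lower.

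The same rule also made calls on the reference arrays. By it, Etv6 was higher than the other 2 at 216 genes (1.1%) and lower at 3 (0.0153%), and Nfxl1 higher at 76 (0.388%) and lower at 23 (0.118%). For genes measured on each of the 5 arrays, the median absolute difference was 0.13 between Gatad2b and Etv6, 0.12 between Gatad2b and Nfxl1, and 0.13 between Etv6 and Nfxl1. EGFP and mock, which share a slide, differed by a median of 0.07. The fourth array of the Gatad2b slide, Esx1, was not used as a reference.

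**Figure D1:**
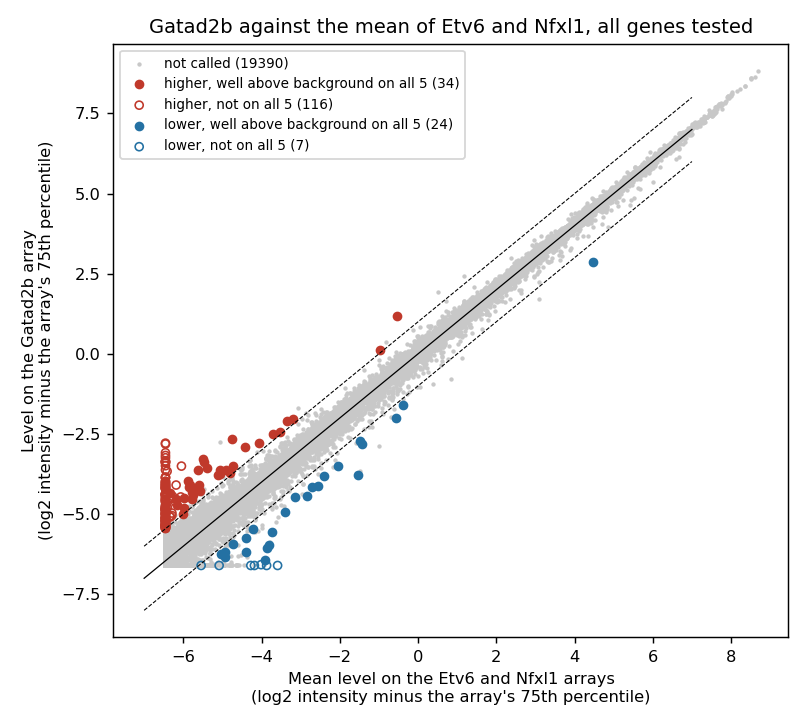
Level of each of 19571 genes on the Gatad2b array (vertical axis) against its mean level on the Etv6 and Nfxl1 arrays (horizontal axis), both as log2 intensity minus the array's 75th percentile. Dashed lines mark 1 log2 above and below the mean. The 150 higher genes (red) crowd at the dim end, with 116 open circles, and the 31 lower genes (blue) spread over a wider range of levels.

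Among the higher genes of known function, the largest differences were between a dim signal on Gatad2b and none well above background on the references. Defb6, an antimicrobial beta-defensin, lay at -2.78 on Gatad2b and at the floor on Etv6, Nfxl1, EGFP and mock, at least 12.7-fold higher than the references. Ferd3l, a basic helix-loop-helix factor of the developing nervous system, lay at -2.81, at the floor on both references and mock, and at -5.93 on EGFP, at least 12.5-fold higher. For both genes the Gatad2b array was the highest of all 12.

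Several others encode receptors, channels and proteins of other tissues. Chrnb2, a neuronal nicotinic acetylcholine receptor subunit, lay at -3.39 on Gatad2b against the floor on the other 4, at least 8.36-fold higher. Lilra5, a leukocyte receptor, lay at -3.24 and was at least 9.28-fold higher, but its other probe was above background on none of the 5 arrays. Prss43, a serine protease of the testis, was at least 8.63-fold higher and Bik, a pro-apoptotic BH3-only protein, at least 7.81-fold. Glycam1, a mucin that binds selectin, was at least 7.14-fold higher and Cacna1i, a T-type calcium channel, at least 6.01-fold. Pcdhb11, Fbxw26, Etos1 and Klrc1 lay between -4.01 and -3.66 on Gatad2b, with the other 4 arrays not well above background, and were at least 5.46-fold to at least 6.74-fold higher. The second Klrc1 probe, like that of Lilra5, was not well above background on any of the 5. Of these 12 genes, 8 were well above background on Gatad2b and on none of the other 11 arrays. The genes were picked for how far Gatad2b lay above the other 4 arrays, which favours such genes. Of all genes tested, 176 were well above background on Gatad2b alone of the 5 arrays. Such genes numbered 101 on Etv6, 82 on Nfxl1, 840 on EGFP and 235 on mock.

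Higher genes that all 5 arrays measured had smaller differences. Mmp24, a membrane-anchored matrix metalloproteinase of the nervous system, lay at -4.33 on Gatad2b, -6.28 on Etv6, -6.41 on Nfxl1, -5.82 on EGFP and -6.23 on mock. That is 4.07-fold above the reference mean, and Gatad2b was the highest of the 5, followed by EGFP. The gap junction gene Gja10 lay at -3.64 against -5.57 and -5.68 on the references, 3.96-fold higher. Slc6a17, a transporter of synaptic vesicles, lay at -3.57 against -5.07 and -5.70, 3.52-fold higher, and Hhip, an inhibitor of Hedgehog signalling, at -4.14 against -6.07 and -5.64, 3.28-fold higher. Other probes of Mmp24, Slc6a17 and Hhip were at or within 0.4 log2 of the floor on Gatad2b. Tex22 and Spata25 were 3.13-fold and 2.81-fold above the references but did not hold against both controls. On EGFP and mock, Spata25 lay at -4.54 and -4.82, near its -4.10 on Gatad2b.

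Sh3gl2, which encodes endophilin A1, a protein of synaptic vesicle endocytosis, lay at -4.19 on Gatad2b and at the floor on the other 4 arrays. It was at least 4.82-fold higher than the references by the brightest of its 3 probes, on chromosome 4 at 84803001 to 84803060 in mm7. That probe was the brightest only through its Gatad2b spot, as it lay at the floor on every other array of the series. The other Sh3gl2 probes lay at -6.12 and at the floor on Gatad2b. Of 304 genes measured in 23 lists of pathways and cell types, 4 were called, all higher. Of all genes tested, 0.925% were called in either direction and 0.766% were higher. Besides Sh3gl2, the 4 were Mmp24, the neuronal splicing factor Rbfox3 and Cldn4, an epithelial tight junction protein. Sh3gl2 and Mmp24 had been chosen with earlier results of these data known. Rbfox3 lay at -4.75 against the floor on both references, at least 3.26-fold higher, while its second probe was not well above background on Gatad2b. Cldn4 lay at -5.44, at least 2.02-fold above both references, and at -5.27 on EGFP, so it did not hold against the controls. With the normexp correction none of these 4 was called.

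The higher calls were seldom repeated by a second probe. Of the 150 genes, 33 had other probes, 47 in all. Another probe met the rule for 1 gene, Coch, and 37 of the 47 were well above background on none of the 3 arrays. Of the 150, 81 (54%) were unnamed clones, predicted genes or receptors of smell, pheromones or taste, as were 21 of the 31 lower genes (67.7%) and 27.4% of all genes tested.

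The spots behind the higher calls differed from the same probes' spots on the other arrays. The SD over a spot's pixels divided by their mean had a median of 0.41 on Gatad2b, against 0.24 on Etv6, 0.25 on Nfxl1, 0.22 on EGFP and 0.24 on mock. It exceeded 0.35, a limit chosen after these values were seen, in 108 of the 150 spots (72%) on Gatad2b, in none on Etv6 or Nfxl1, in 1 on EGFP and in 2 on mock. Of all spots in the same range of signal, 1.16% exceeded it on Gatad2b, 1.01% on mock, 0.593% on Etv6, 0.664% on Nfxl1 and 0.509% on EGFP. That range, a mean signal of 49.0 to 1931, was not matched to the dim levels of most of the 150. Its median ratio on Gatad2b was 0.17, below that of the 150 probes on each other array. Calls of the references had spots above 0.35 too. These were 22.2% of the 216 genes higher on Etv6 and 55.3% of the 76 higher on Nfxl1. None of the 31 lower genes, which were picked for a low signal on Gatad2b, had such a spot there.

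**Figure D2:**
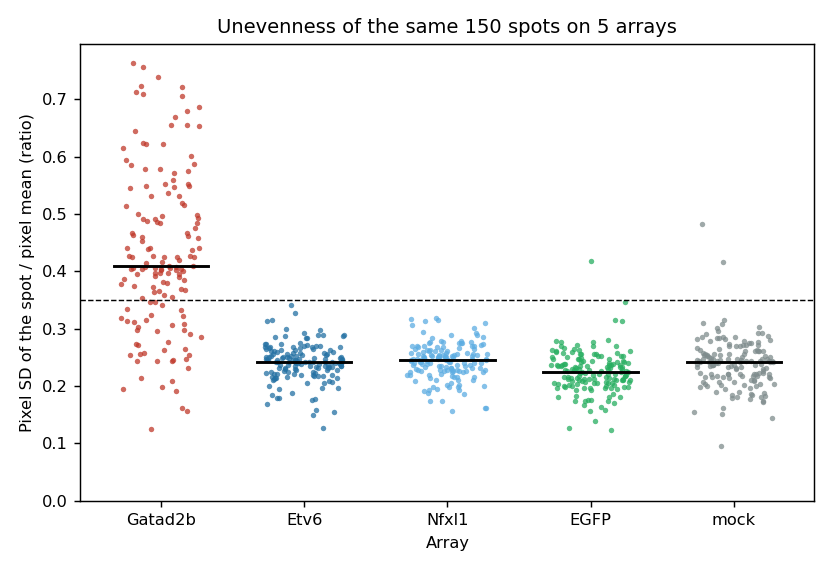
SD over the pixels of a spot divided by their mean (a ratio, vertical axis) for the probes of the 150 genes higher on Gatad2b, on each of 5 arrays. Points are spots, black bars medians, and the dashed line marks 0.35. On Gatad2b 108 points lie above the line, and on the other 4 arrays 3 do in all.

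These spots were also unevenly placed. With the array divided into a grid of 8 by 5 blocks, 1 block, the second from the top in the middle columns, held 35 of the 150 spots (23.3%) and 2.52% of all spots. On Gatad2b, 9.39% of that block's spots in this range of signal were uneven by the limit of 0.35. None was on Etv6 and 0.213% were on Nfxl1. No lower gene lay in the block, and of the genes named above only Klrc1 did. The block did not hold the whole run of spots in the middle columns. Spata25, at row 64 and column 41, and Tex22, at row 30 and column 37, lay above the block. Taken over all rows, the middle 1 of the 5 columns of blocks held 72 of the 150 spots (48%) and 20.3% of all spots. It also held the spots of 4 lower genes. Outside the block of 35 spots, 76 of the remaining 115 higher genes still had an uneven spot.

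**Figure D3:**
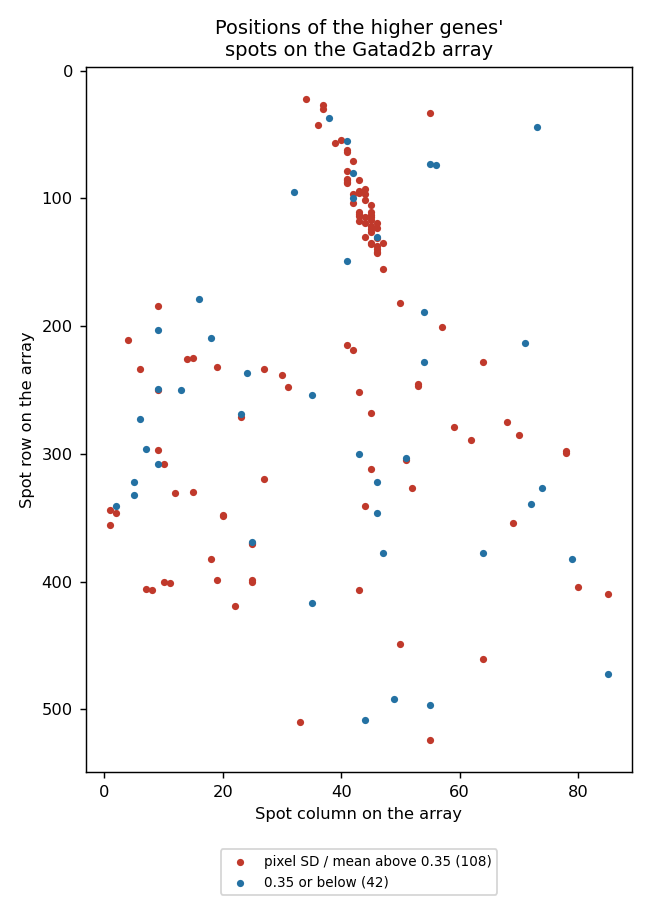
Row and column on the Gatad2b array of the spots of the 150 higher genes, with red for the 108 whose pixel SD exceeded 0.35 of the mean and blue for the other 42. A narrow run of mostly red spots descends through the middle columns near the top, and the rest are scattered.

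With every spot above 0.35 left out, 42 higher genes were called against both references (24 against all 4 other arrays) and 29 lower. Of the higher genes named above, only Ferd3l, Chrnb2, Fbxw26, Slc6a17, Rbfox3 and Cldn4 were among the 42. Defb6, Mmp24 and Sh3gl2 were not, with ratios of 0.43, 0.43 and 0.55 on Gatad2b. Lilra5, Prss43, Glycam1, Pcdhb11, Etos1, Cacna1i, Klrc1 and Bik were lost as well, as were Gja10, Tex22, Hhip, Spata25 and Coch. Their ratios on Gatad2b ran from 0.40 for Tex22 to 0.71 for Coch, so most of the higher genes named above were dropped. With the median of a spot's pixels in place of the processed signal, the count went the other way, to 248 higher, and 138 of the 150 were still called. The part of uneven spots in the higher calls was not tested beyond these values.

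The lower genes were fewer, and none had a spot above 0.35 on Gatad2b. They were picked for a low signal there, so that count cannot be set against that of the higher genes. A spot of 1 of the 31 was above 0.35 on Etv6 and of 1 on Nfxl1, the latter that of Prl3b1. Of the 31, 3 had other probes, 5 in all, and none of the 5 met the rule. Xpnpep3, an aminopeptidase on chromosome 15, lay at -2.82 on Gatad2b, -1.45 on Etv6, -1.40 on Nfxl1, -1.37 on EGFP and -1.45 on mock. It was 2.63-fold lower than the references, with the other 4 arrays within 0.1 log2 of each other, and Gatad2b was the lowest of the 12. Its other 2 probes differed by -0.27 and -0.12 and were not called. Tmem245, a membrane protein, lay at -5.95 against -4.19 and -3.44 on the references, 4.37-fold lower, while its other probes stood at -0.02 and 0.78.

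Nptx1, a neuronal pentraxin that gathers glutamate receptors, was not well above background on Gatad2b and lay at -3.13 on Etv6, -4.89 on Nfxl1, -4.85 on EGFP and -4.91 on mock, at least 5.92-fold below the reference mean. The high value was that of Etv6, as it was for Utp14b, a gene of ribosome assembly, at -2.76 on Etv6 and -5.60 on Nfxl1. Nr2f1, the orphan nuclear receptor COUP-TFI of cortical patterning, was not well above background on Gatad2b. It lay at -5.58 and -5.51 on the references and at -4.78 and -4.81 on EGFP and mock, and was at least 2.08-fold below the references.

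Other lower genes were separate from the references but not from both controls. Jmjd4, a hydroxylase, lay at -6.07 on Gatad2b, -4.01 on Etv6 and -3.72 on Nfxl1, a difference of -2.20, but at -5.17 on mock. Ism1, a secreted protein, lay at -3.81 against -2.56 and -2.24, 2.66-fold lower, and at -3.93 on EGFP, so there the references were the high arrays. Prl3b1, a placental hormone of the prolactin family, was 2.48-fold lower, and was lost when uneven spots were left out, with a ratio of 0.39 on Nfxl1. Rpl30, a ribosomal protein, lay at 2.87 on Gatad2b, 4.15 on Etv6, 4.79 on Nfxl1, 4.25 on EGFP and 3.59 on mock, 3.03-fold lower. No other lower gene lay above a level of -1 on Gatad2b. Its range among the other 4 arrays was itself over 1 log2, and its many near-identical copies make the source of the signal uncertain.

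**Figure D4:**
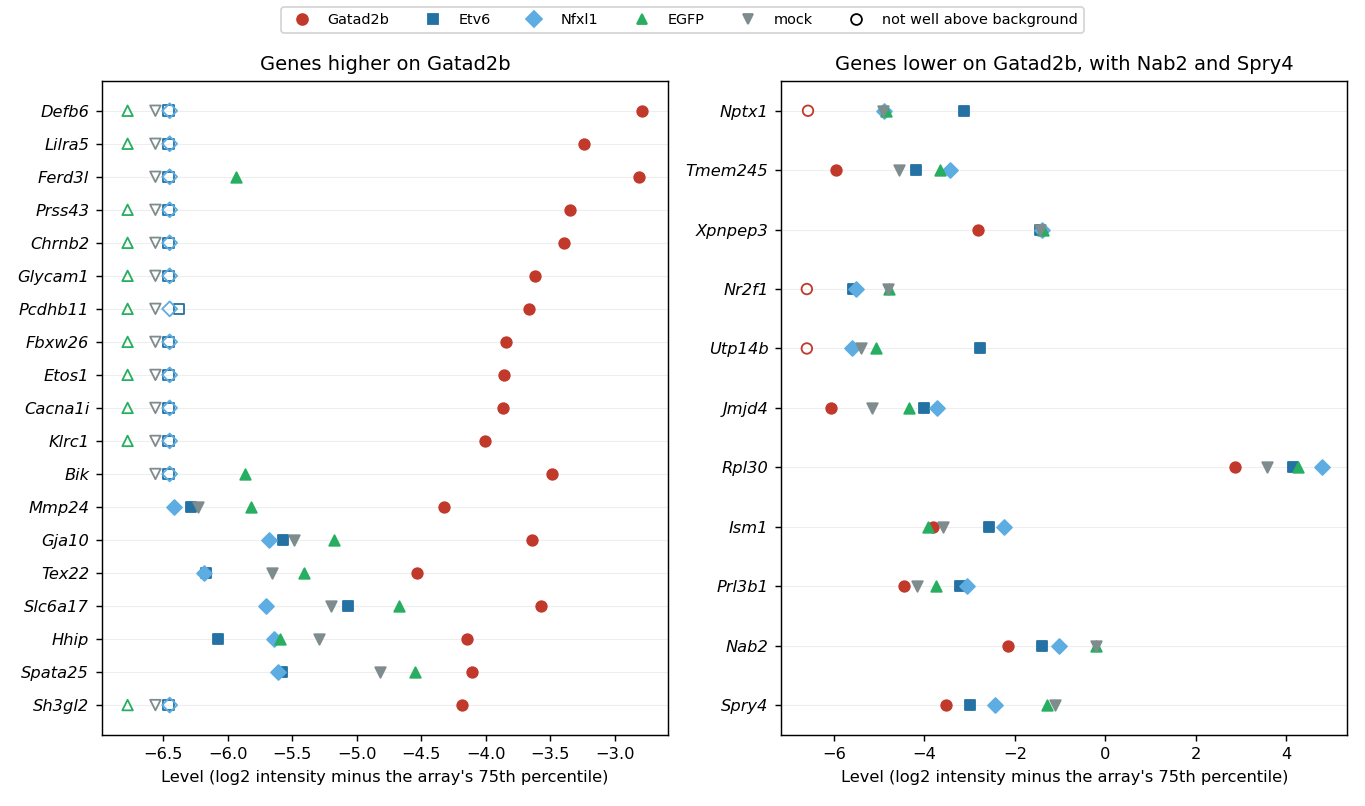
Levels (log2 intensity minus the array's 75th percentile, horizontal axis) of 30 of the genes named by rule (the largest differences in each direction, Sh3gl2, Nab2 and Spry4), on the Gatad2b, Etv6, Nfxl1, EGFP and mock arrays. Open symbols were not well above background. At left, red Gatad2b points stand right of the other 4 arrays for each gene plotted. At right, they stand left of both references for each gene, and Nab2 and Spry4 show a step from Gatad2b through the references to both controls.

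Nab2 and Spry4 were lower on Gatad2b than on every array compared here but did not reach 2-fold against both references. Nab2, a corepressor that binds EGR proteins and is itself induced by them, lay at -2.16 on Gatad2b, -1.40 on Etv6, -1.03 on Nfxl1, -0.21 on EGFP and -0.21 on mock. Gatad2b was the lowest of all 12 arrays, and the other 7 ranged from -1.02 to 0.85. Against the reference mean the difference was -0.95, or 1.93-fold, and against the mean of both controls -1.95, or 3.87-fold. The software's error for each of these spots was about 0.14 to 0.15 log2, and 1 probe, on chromosome 10 at 127162313 to 127162372 in mm7, measured the gene.

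Spry4, a Sprouty inhibitor of receptor tyrosine kinase signalling that ERK activity induces, lay at -3.52 on Gatad2b, -2.98 on Etv6, -2.45 on Nfxl1, -1.29 on EGFP and -1.10 on mock. The difference was -0.80 from the references and -2.32 from the controls. Esx1, on the same slide, was lower still at -3.63. A second, neighbouring Spry4 probe showed no such order, at -3.84, -3.80, -3.39, -3.92 and -3.65 on the same 5 arrays. For both genes the references lay between Gatad2b and the controls. The log2 distance from the control mean to the reference mean was 51.4% of that from the control mean to Gatad2b for Nab2, and 65.4% for Spry4.

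That held for most genes that were low against the controls. Against EGFP and mock alone, 133 genes were higher on Gatad2b (0.68%) and 210 were lower (1.07%). Of the 210, 19 (9.05%) were also lower than both references. Their median difference was -1.46 from the controls and -0.39 from the references, and in 175 of them the references too lay at least 0.5 log2 below the controls. Of the 133 higher genes, 118 (88.7%) were also higher than both references. Only 14 of the 118 were well above background on all 5 arrays. Where the other 4 arrays lie at the floor, agreement between controls and references follows largely from the floor. The 88.7% and the 9.05% are therefore not alike. The controls stood on another slide, so slide and overexpression cannot be told apart in these counts.

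The pathway of Nab2 was taken as a list of 25 immediate early and EGR genes, which growth factor signals switch on within minutes. All 23 measured were well above background on all 5 arrays and none was called against both references. Their median difference was -0.18 from the references, beside 0.03 over all genes, in a range of -0.95 to 0.29. From the controls it was 0.04, so the list was low against the references only. On Gatad2b, 14 of the 23 lay below both references, as 29.5% of all genes did, and 8 lay below all 4 other arrays, as 17.4% did. Both counts include Nab2. The shares over all genes include genes at the floor, which the 23 do not. A gene at the floor on all 3 slide arrays counts as below both references, because the Gatad2b floor was the lowest of these. Egr1, the zinc finger factor that recruits Nab2, lay at 1.72 on Gatad2b, 2.10 on Etv6, 2.61 on Nfxl1, 2.54 on EGFP and 2.77 on mock, the lowest of the 5. Ier3 lay at 1.33 against 1.94, 1.98, 1.63 and 1.74, again the lowest. Egr2, Egr3, Nab1, Fos and Junb were also lowest on Gatad2b, by smaller amounts, while Nr4a2, Klf6 and Srf were highest there.

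Of 20 ERK feedback genes and targets listed, 17 were measured and none was called. The median was -0.10 from the references and 0.05 from the controls. On Gatad2b, 8 of the 17 lay below both references, as 29.5% of all genes did, and 4 lay above both, as 41.9% did. Only 2 lay below all 4 other arrays, as 17.4% of all genes did. These shares, too, include genes at the floor. Spry1 and Spry2 differed by 0.02 and -0.12, and the phosphatases Dusp4 and Dusp6 by -0.17 and -0.13. Fosl1, an AP-1 subunit, was second to Spry4 at -0.43. It was higher on Gatad2b than on EGFP.

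Of the other lists, that of interferon response genes had the highest median, 0.27, with none of 16 members called and 12 above both references, where 41.9% of all genes were. That share, too, includes genes at the floor on Gatad2b, which cannot lie above both references. Oasl2 lay at -2.78 on Gatad2b, -3.85 on Etv6, -3.11 on Nfxl1, -2.56 on EGFP and -2.69 on mock, so the references lay farther from the controls than Gatad2b did. Stat2 lay at 0.57, 0.01, -0.01, 0.57 and 0.44 in the same order. Against the controls the median of the list was -0.13. The 20 cell cycle genes had a median of 0.08 from the references and 0.05 from the controls, 14 lay above both references, and none was called. Their largest difference was that of the mitotic cyclin Ccnb2, at 5.35 on Gatad2b, 4.96 on Etv6 and 5.14 on Nfxl1.

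**Figure D5:**
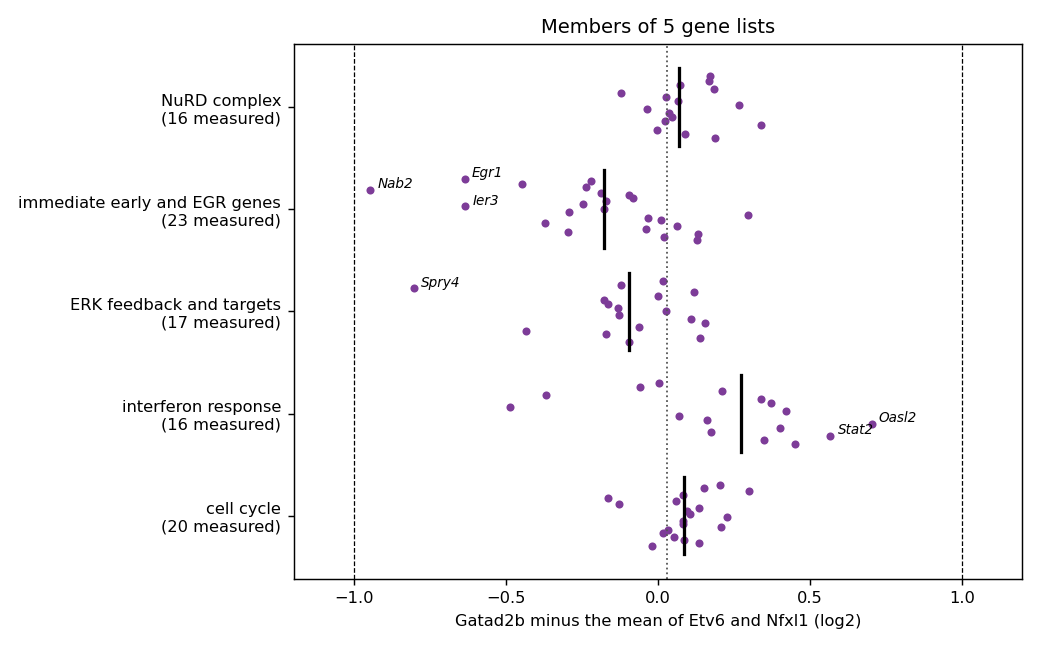
Difference between Gatad2b and the mean of Etv6 and Nfxl1 (log2, horizontal axis) for the measured members of 5 gene lists, 1 point a gene, with black bars for list medians. The dotted line marks the median of all genes tested, 0.03, and dashed lines 1 log2. No point reaches a dashed line, and Nab2 at -0.95 and Spry4 at -0.80 lie farthest left.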

How the data were processed

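RNA from 12 cultures was hybridised to one-colour (Cy3) Agilent arrays, 4 on each of 3 slides, from 0.25 µg of RNA each, per the labels. Per the file headers, the deposited intensity (gProcessedSignal) is background-subtracted by Feature Extraction 10.7.3.1, on a linear scale, and probe positions are in mm7. The deposited files also hold other per-spot values, among them the pixel SD and the error of the processed signal. The sources used here name no further normalization by the authors, and the deposited value table equals that column.

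From these, outlier and control spots were left out, repeated spots averaged (43379 spots, 41174 probes), each array divided by its 75th percentile (823 to 1026 units), values raised to the floor, and log2 taken. The brightest probe by its mean over 12 arrays stood for a gene, named by RefSeq accession (22944 probes), symbol (6664), synonym (3108) or as in the file (8458). That mean includes Gatad2b, so among dim probes one that was high on Gatad2b alone could be the one chosen. Precision is limited by the number of arrays, and there were no saturated spots. A fold is written as "at least" where the dimmer side was not well above background.

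Named were up to 12 genes a direction with the largest smaller difference among those beyond all 4 other arrays. Fewer than 12 lower genes qualified. Also named were the 6 a direction among those beyond both references and measured on all 5. Called list members, Nab2, Spry4, Sh3gl2, Mmp24, the NuRD genes and the inserts were named too. Clones, predicted genes, sensory receptors and genes with an opposing probe were not named. The members, lists and rules were chosen with earlier results of these data known. A planned motif search is not reported, since no value here bears on promoters. Tools were Python 3.11.15, pandas 2.3.3, R 4.3.3 and limma 3.58.1 (normexp). The call rule was tested on simulated data with noise taken from EGFP against mock. Changes were set only in genes well above background on all 5 arrays with a reference mean above -3. Only 11 of the 150 higher genes lay above -3 on Gatad2b, so the simulation does not cover the dim genes behind most higher calls.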

Additional observations from a re-analysis of the deposited data

How the results depend on the processing

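The main counts were 150 higher and 31 lower against both references, and 118 and 19 against all 4 other arrays, and no count could be set against replicate error. No paired analysis was possible because each group holds 1 array. In the same order, a normexp correction gave 11, 4, 11 and 3, a 3-fold limit 72, 7, 55 and 4, and a 1.5-fold limit 321, 141, 188 and 82. Without the floor 262 genes were higher than both references and 179 higher than all 4. Restricted to genes measured above background on every one of the 5 arrays, these were 34 and 14. Etv6 alone as reference gave 311 lower. Nfxl1 alone gave 236 higher and 152 lower, and EGFP with mock 210 lower. Quantile normalization, the mean of a gene's probes and keeping outlier spots moved no count by over 1.5 times. Chosen after seeing the data were the median of the pixels, with 248 higher than both references and 29 lower than all 4, and leaving out uneven spots, with 42 higher than both and 24 higher than all 4. Higher genes made up 82.9% of the calls, 73.3% with normexp, 58.6% on all 5 arrays and 59.2% without uneven spots. With Etv6 alone (177 higher) and with EGFP and mock (133 higher) lower genes were in the majority, and higher ones made up 36.3% and 38.8%. A higher call needs a signal well above background on Gatad2b only, a lower call on both references. The same rule gave 216 higher and 3 lower genes on Etv6, and 76 and 23 on Nfxl1. An excess of higher calls was thus not particular to Gatad2b. With normexp, the higher genes named above that were still called were Defb6, Lilra5, Ferd3l, Prss43, Chrnb2 and Glycam1, and the lower ones Xpnpep3 and Rpl30. With the mean of all probes Tmem245, Xpnpep3, Slc6a17, Hhip, Ism1, Sh3gl2 and Rbfox3 were no longer called. No result reversed its direction past the threshold under the alternatives run. Dim probes limit what these arrays show: below a level of -3 repeated spots of 1 probe on Gatad2b had a median SD of 0.27.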

Other observations

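At a 1.5-fold limit, chosen after the values were seen, among genes well above background and above a level of -3 on all 5 arrays, 2 lay above all 4 other arrays on Gatad2b (0.0102% of those tested) and 17 below them (0.0869%). The higher genes were Smco4, a small membrane protein, at 0.14 on Gatad2b, -1.04 on Etv6, -0.88 on Nfxl1, -0.78 on EGFP and -0.97 on mock, and Radx, a single-strand DNA binding protein of replication forks, at -1.90 against -2.77, -2.84, -2.82 and -2.58. Smco4 was the highest of the 12 arrays on Gatad2b, and Radx was not.

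The lower genes included Ttc8, a subunit of the ciliary BBSome, at -1.60 on Gatad2b, -0.54 on Etv6, -0.24 on Nfxl1, -0.35 on EGFP and -0.87 on mock, and Atl1, a GTPase that shapes the endoplasmic reticulum, at -0.35 against 0.28, 0.89, 1.26 and 1.10. Trim55, a muscle ubiquitin ligase, lay at -2.09 against -1.39, -1.14, -1.05 and -1.44. These 3 genes were lowest on Gatad2b of all 12 arrays. The 2 dimmer Atl1 probes did not repeat its order. The long noncoding RNA Pvt1 lay at -1.80 against -0.89, -0.96, -0.67 and -0.67, and on 6 other arrays of the series it was lower than on Gatad2b.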
